A study of Mus musculus with 6 samples.

Results

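The genes of 10 cytosolic and mitochondrial heat shock proteins were followed in N2a cells after knockdown of circRtn4. N2a cells (Neuro2A) come from a mouse neuroblastoma and are labelled C57BL/6 in strain. The genes were chosen by name as chaperones of the heat shock response outside the endoplasmic reticulum, and all 10 were among the 54532 genes listed. They comprise Hspa1a, Hspa1b, Hspa8 and Hsph1 (HSP70 and HSP110 proteins), Hsp90aa1 and Hsp90ab1 (HSP90), Dnaja1 and Dnajb1 (J proteins), Hspb1 (a small heat shock protein) and Hspd1 (mitochondrial HSP60).

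RNA was sequenced from 3 libraries of N2a cells transfected with a control siRNA (si-NC) and from 3 libraries of N2a cells transfected with si-circRtn4, an siRNA against the circular RNA circRtn4. All cells are of 1 line. The labels name the growth medium alone, whereas the study's methods move transfected N2a cells to retinoic acid medium before harvest, so whether these cells were undifferentiated or differentiated is uncertain. The labels also do not say whether the libraries came from separate cultures, so that p-values measure the spread between these libraries. The study asked how loss of circRtn4, a circular RNA that binds miR-24-3p, alters gene expression in these cells.

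Heat shock proteins are molecular chaperones. HSP70 proteins bind unfolded stretches of client proteins in a cycle driven by ATP, J proteins bring clients to HSP70 and start that cycle, HSP110 exchanges its nucleotide, and HSP90 takes over many signalling proteins at a later step. HSP60 encloses mitochondrial proteins in a barrel that is capped by HSP10, the product of Hspe1. HSP70 and HSP90 have members made at all times, such as Hspa8 and Hsp90ab1. Other members are induced under stress by the transcription factor HSF1, such as Hspa1a and Hspa1b. HSF1 binds heat shock elements, which are inverted repeats of short units in promoters.

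To show where HSF1 could bind, RefSeq promoter windows (GRCm38.p6) from 250 bases before to 50 bases after a start site were searched for heat shock elements. The units were GAA and TTC in turn, 2 bases apart, so a run of 2 units reads GAANNTTC or TTCNNGAA on either strand, and a longer run of 3 or 4 units also holds shorter runs that overlap it. Windows were found for 7 of the 10 genes, and Hspa8, Hsp90aa1 and Hsp90ab1 had none in the table. A run of at least 3 units occurred in 2 of these 7 genes (Hspd1 and Hsph1), against 0.662% of the 27025 genes with a window. A run of at least 2 units occurred in 6 of the 7, all but Dnajb1, against 17.0% of genes. These runs are shown since HSF1 is the factor that induces this family, with the units and the bases between them in capitals.
Hspd1, chr1:55088053-55088082, minus strand: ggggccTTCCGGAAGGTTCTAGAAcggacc
Hspe1, chr1:55088053-55088082, plus strand: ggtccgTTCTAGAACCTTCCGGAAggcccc
Hsph1, chr5:149636287-149636316, minus strand: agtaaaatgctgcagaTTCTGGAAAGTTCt
Hsph1, chr5:149636351-149636380, minus strand: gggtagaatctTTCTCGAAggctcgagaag
Hspa1a, chr17:34972242-34972271, minus strand: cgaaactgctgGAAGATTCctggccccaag
Hspa1b, chr17:34959324-34959353, minus strand: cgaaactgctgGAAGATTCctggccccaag
Hspb1, chr5:135887791-135887820, plus strand: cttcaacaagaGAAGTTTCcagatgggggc
Hspb1, chr5:135887811-135887840, plus strand: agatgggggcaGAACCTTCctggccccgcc
Dnaja1, chr4:40722333-40722362, plus strand: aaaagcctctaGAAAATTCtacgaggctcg

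The run of 4 units is a single element read from both sides. Hspd1 and Hspe1 lie head to head on chromosome 1, and the element between 55088059 and 55088076 falls inside a window of each gene. It starts 144 bases before 1 start site of Hspd1 and 89 bases before that of Hspe1. Another window of Hspd1, from 55088194 to 55088493, held no run. The listed span of Hspd1 ends at 55088243, so the element lies within that span. Hspa1a and Hspa1b carried the same 30 bases, and 296 of the 300 bases of their windows were the same at the same place. The run of 3 units of Hsph1 began 36 bases after 1 of its start sites, within the transcribed part. A match is a string of letters and not a measured binding site. Only exact units at this spacing and inside these windows were searched. The lack of a run, as in Dnajb1, therefore does not show that a gene has no heat shock element.

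**Figure D1:**
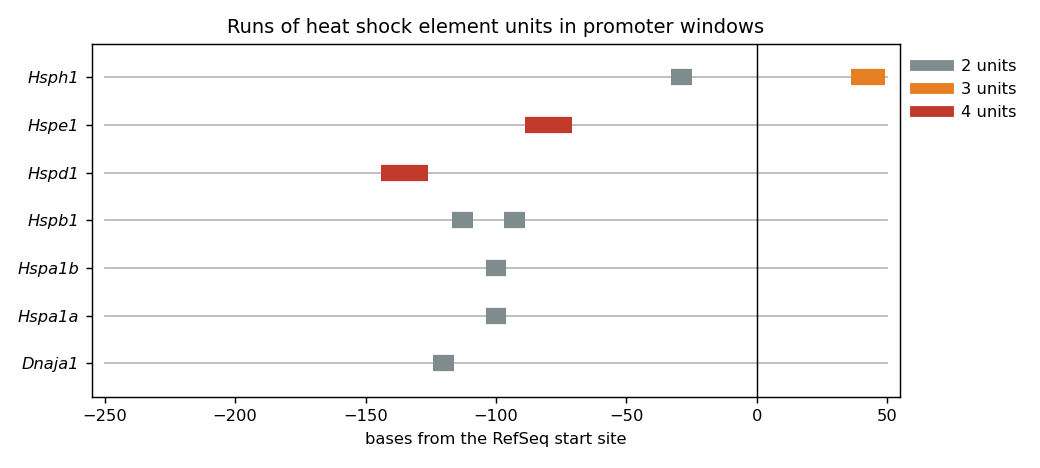
Runs of heat shock element units (coloured bars; 2, 3 or 4 units) in promoter windows, plotted as bases from the RefSeq start site for the genes with a run. The 4 units of Hspd1 and of Hspe1 are the same element, and the 3 units of Hsph1 lie after its start site.

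The libraries held 14100818 to 14748929 reads on genes in si-NC and 13541198 to 15122063 in si-circRtn4, as recovered from the deposited FPKM values. FPKM values scale the fragments of each gene for gene length and sequencing depth. The listed gene length can exceed that of the longest transcript, so levels, ranks and ratios across genes depend on it. Rtn4, the gene of circRtn4, was at 61.0 to 69.8 FPKM in si-NC and 50.1 to 62.7 FPKM in si-circRtn4, (log2 fold change -0.22, adjusted p = 0.216 from limma). This level joins linear and circular RNA and gives no separate value for circRtn4. Of 12 markers of sympathetic neuroblasts 11 were above 1 FPKM (Nefl had 0 reads). Their summed level was 2516 to 2770 FPKM in si-NC and 1082 to 1555 FPKM in si-circRtn4. Such a sum is weighted to the most abundant markers. Marker by marker, the median log2 fold change of these 11 was -0.34, with 10 below 0 and 1 above. After adjustment limma called 5 of the 11 at the 0.05 level, each lower in si-circRtn4, against 9.19% of all genes tested. Markers of glia (1 of 6 above 1 FPKM, Mbp), fibroblasts (0 of 4) and immune cells (0 of 4) were low. In bulk RNA, fewer cells of a type and less RNA per cell cannot be told apart, and the part of the lower neuroblast markers in the values below was not tested.

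The constantly made chaperones were among the most abundant RNAs of N2a cells, while the classical inducible HSP70 genes were at or near 0 reads. By level, Hsp90ab1 came first of the 10 and ranked 6 among the 12749 genes that averaged 1 FPKM or more, followed by Hspa8 (rank 79), Hsp90aa1 (136), Hspd1 (160), Hsph1 (755), Dnaja1 (1089) and Dnajb1 (1462). The ranges over the 6 libraries overlapped between Hsp90aa1 and Hspd1 and between Hsph1 and Dnaja1, and the other neighbours down to Dnajb1 were separate. Together the 10 genes took 0.892% to 0.988% of the reads of a library, and Hsp90ab1 alone took 0.5003% to 0.540%.

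Hspa1a, which encodes the main stress-induced HSP70, had 1 read in si-NC replicate 2 and 0 reads in the other 5 libraries. Hspa1b, its near-identical neighbour on chromosome 17, had 1 read in si-NC replicate 2, 1 read in si-circRtn4 replicate 3 and 0 reads in the other 4. Thus neither gene passed 1 read in any library. A count of 0 allows up to 3 reads, which corresponds to 0.0650 to 0.0765 FPKM for these genes and covers counting error only. A count of 1 allows more than this. The copies share sequence: of all 50-base windows of the annotated transcript, 66.3% in Hspa1a and 62.3% in Hspa1b also occur in transcripts of other genes, and 983 and 1038 windows respectively do not. Reads that fit both copies may have been dropped by the counting, which is not stated, so a low level of either gene is uncertain.

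Hspb1 encodes HSP25, a small heat shock protein that holds unfolded proteins and binds actin filaments. It had 1, 0 and 2 reads in si-NC and 3, 3 and 2 reads in si-circRtn4, too few to compare the groups. Of its 50-base windows 51.6% also occur elsewhere, all of them in the pseudogene Hsp25-ps1. These 3 genes were below the filter of 1 FPKM and no fold change is given for them.

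**Figure D2:**
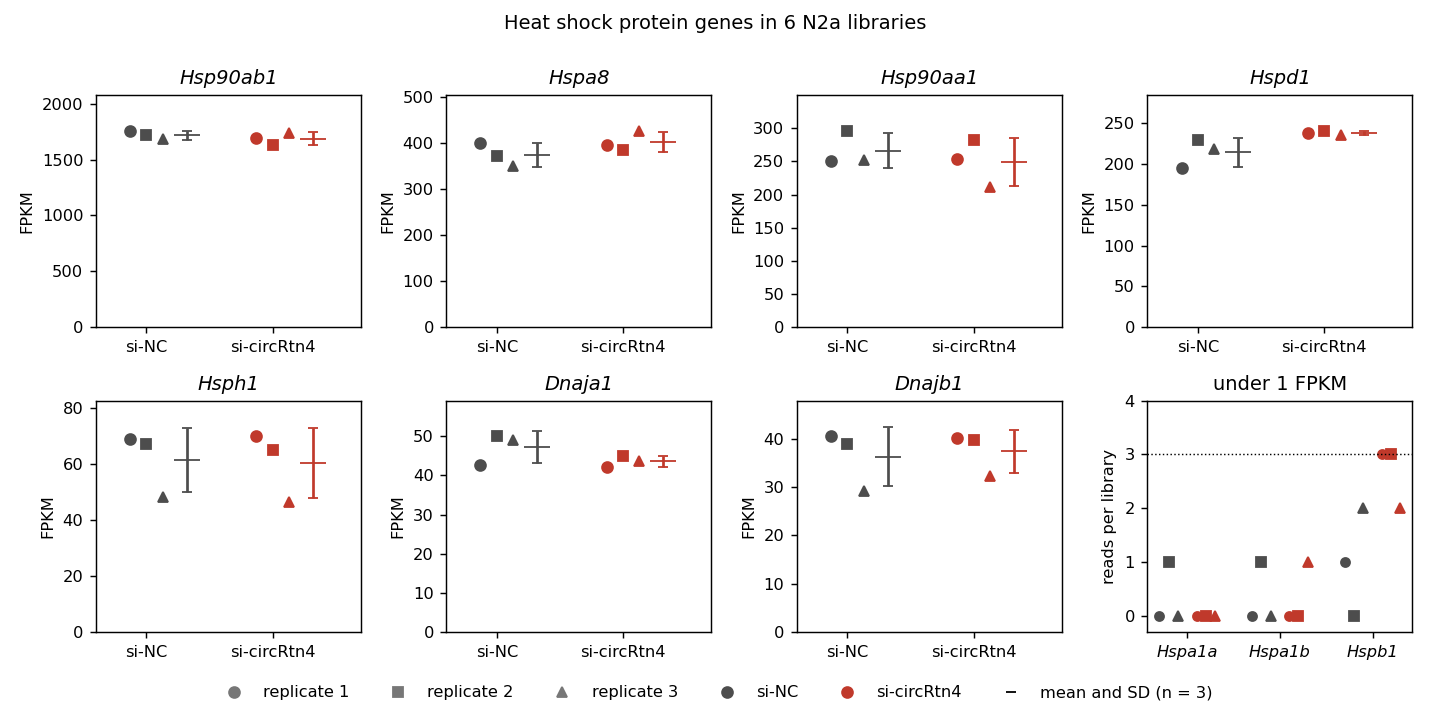
Level of each gene in the 6 libraries (FPKM, axes from 0; symbols mark the replicate number, dashes and bars the mean and SD, n = 3), and reads per library of the 3 genes under 1 FPKM. The dotted line marks 3 reads, the most that a count of 0 allows. The groups overlap for every gene but Hspd1, and Hsph1 and Dnajb1 are lowest in replicate 3 of each group.

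Knockdown was then compared with control in limma on log2(FPKM + 1). Of the 7 genes tested, 0 passed an adjusted p of 0.05, where 9.19% of the 12749 genes did (1171 genes; 4.36% higher and 4.82% lower). At an unadjusted p under 0.05 the count was also 0 of 7, against 25.9% of all genes. Run on recovered reads, limma-voom likewise called 0 of 7, where it called 12.9% of all genes. Fold changes below are on the log2(FPKM + 1) scale, si-circRtn4 over si-NC. Their median was -0.03 over the 7 genes and 0.00197 over all genes tested, and the median size without its sign was 0.101 against 0.144. Only Hspd1 had groups that did not overlap (1 of 7), while 31.7% of all genes tested did.

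Hsp90ab1, the constantly made cytosolic HSP90, was at 1759.5, 1718.2 and 1680.8 FPKM in si-NC and at 1690.3, 1634.7 and 1742.7 FPKM in si-circRtn4. Its libraries differed by no more than 1.08 times, the least of the 7 genes. The group means were 1719.5 ± 39.4 and 1689.2 ± 54.0 FPKM (SD, n = 3 each). The log2 fold change was -0.03 (95% interval -0.22 to 0.17, adjusted p = 0.885, limma). Hsp90aa1, the stress-responsive HSP90, was at 251, 296 and 252 FPKM in si-NC and at 254, 282 and 211 FPKM in si-circRtn4. The lowest library was si-circRtn4 replicate 3 and the groups overlapped. Its log2 fold change was -0.10 (95% interval -0.39 to 0.19, adjusted p = 0.670, limma).

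Hspa8, the constant HSP70 (HSC70) that also strips clathrin from vesicles, was at 401, 372 and 351 FPKM in si-NC and at 396, 386 and 428 FPKM in si-circRtn4. The highest value was in si-circRtn4 replicate 3 and the lowest in si-NC replicate 3, and the groups overlapped. The means were 374 ± 25.4 and 403 ± 21.7 FPKM (SD, n = 3 each), with a log2 fold change of 0.11 (95% interval -0.09 to 0.31, adjusted p = 0.488, limma). Hsph1, the HSP110 nucleotide exchange factor of HSP70, was at 69.0, 67.0 and 48.4 FPKM in si-NC and at 70.1, 65.1 and 46.4 FPKM in si-circRtn4. Values of the same replicate number lay next to each other in both groups, and replicate 3 was the lowest in each. Its log2 fold change was -0.03 with a wide 95% interval of -0.46 to 0.41 (adjusted p = 0.951, limma).

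The J proteins were close in FPKM, with Dnaja1 above Dnajb1 in each of the 6 libraries. This closeness depends on the gene lengths used, 8629 bases for Dnaja1 and 3204 for Dnajb1. Their longest annotated transcripts have 5622 and 2996 bases. In si-NC replicate 1 Dnaja1 had 5557 reads and Dnajb1 1964. Dnaja1, a farnesylated J protein that works with HSC70, was at 42.7, 50.1 and 49.0 FPKM in si-NC and at 42.2, 45.0 and 43.5 FPKM in si-circRtn4, with overlapping groups (log2 fold change -0.11, 95% interval -0.30 to 0.08, adjusted p = 0.452, limma). Dnajb1, the classical HSP40, was at 40.6, 38.9 and 29.3 FPKM in si-NC and at 40.3, 39.8 and 32.2 FPKM in si-circRtn4, and again replicate 3 was the lowest of each group (log2 fold change 0.05, 95% interval -0.28 to 0.38, adjusted p = 0.860, limma).

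Hspd1 encodes HSP60, the chaperonin of the mitochondrial matrix. It was at 195, 230 and 218 FPKM in si-NC and at 239, 241 and 236 FPKM in si-circRtn4. Each si-circRtn4 library was above each si-NC library, and the si-circRtn4 libraries lay close together. The means were 214 ± 17.6 and 239 ± 2.37 FPKM (SD, n = 3 each). The log2 fold change was 0.16 (95% interval -0.04 to 0.35). This did not pass the test (adjusted p = 0.292, limma), and the adjusted p ranged from 0.0619 with a replicate block in limma-voom to 0.533 without si-NC replicate 1. The two-sided exact permutation test gave p = 0.1, the smallest value that 3 libraries against 3 allow. Reads on 2 Hspd1 pseudogenes came to 144 to 555 per library, or 1.85% to 5.60% of the Hspd1 reads, and 44.8% of the 50-base windows of Hspd1 also occur in other genes, so its share is uncertain to that extent. The other 7 pseudogenes of these genes that are listed by description had 0 reads in the 6 libraries. A search by description misses other copies. Gm12346 shares 1664 windows with Hsp90aa1, Gm15459 shares 1409 with Hspa8 and Gm15542 shares 877 with Dnaja1. Reads on these 3 genes were not counted here, so reads lost to copies are unknown for these members. Shared windows made up 58.5% of Hsp90aa1, 52.7% of Hspa8 and 28.8% of Dnaja1, but 4.49% of Hsp90ab1, 0.441% of Dnajb1 and 0 of Hsph1.

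**Figure D3:**
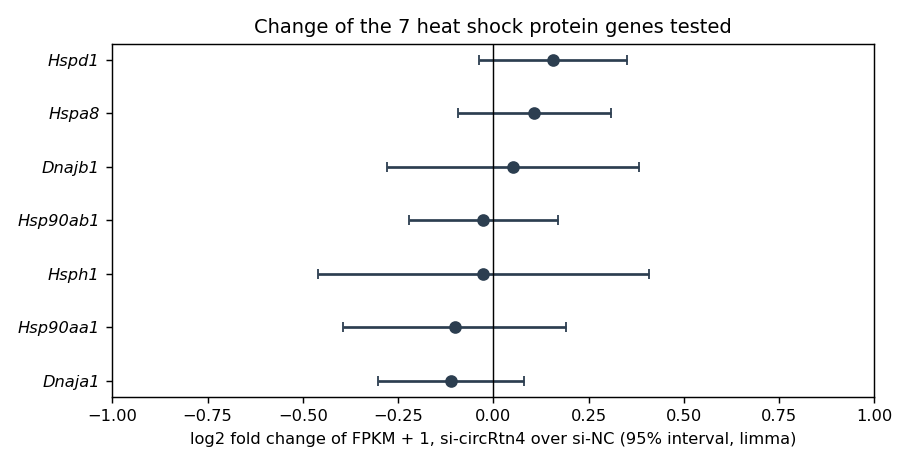
Log2 fold change of FPKM + 1 in si-circRtn4 over si-NC for the 7 genes tested (points), with the 95% interval from limma (bars). Every interval covers 0, and that of Hsph1 is the widest (-0.46 to 0.41).

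Ratios within a library cancel its scaling and ask whether related chaperones changed unequally. The ratio of Hsp90aa1 to Hsp90ab1 was 0.155 ± 0.0157 in si-NC and 0.148 ± 0.0260 in si-circRtn4 (SD, n = 3 each, two-sided exact permutation p = 0.9). The ratio of HSP60 to its cap, Hspd1 to Hspe1, was 1.42 ± 0.163 and 1.49 ± 0.146 (SD, n = 3 each, two-sided exact permutation p = 0.6). The ratio of Dnajb1 to Dnaja1 was 0.775 ± 0.177 and 0.860 ± 0.109 (SD, n = 3 each, two-sided exact permutation p = 0.6). After adjustment over these 3 ratios each exact p was 0.9. With 3 libraries against 3 the exact test cannot go below 0.1, so no ratio could have passed, and the values are given as a description. Within pairs of the same replicate number the ratio of Dnajb1 to Dnaja1 was higher in si-circRtn4 in 3 of 3 pairs (0.952 and 0.955, 0.776 and 0.885, and 0.598 and 0.741), and each of the other two ratios was higher in 2 of 3. A ratio of Hspa1a plus Hspa1b to Hspa8 could not be formed at 0 to 1 reads per gene.

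Hsph1, Dnajb1 and Hsp90aa1 differed between replicate numbers in limma-voom. This comparison was chosen after the values had been seen. Libraries of the same number deviated together over all genes, and a term for the replicate number in limma-voom was passed by 3 of the 7 genes, where 13.5% of all genes passed it. The term is an F test over the replicate numbers jointly. Each adjusted p below belongs to the term, and no single difference between numbers was tested. Hsph1 was 0.57 lower on the log2 scale in replicate 3 than in replicate 1 over both groups (adjusted p = 6.32e-05 for the term, limma-voom). Dnajb1 was 0.41 lower (log2 difference -0.41, adjusted p = 0.00254 for the term, limma-voom). Hsp90aa1 was highest in replicate 2, with log2 differences from replicate 1 of 0.19 in replicate 2 and -0.15 in replicate 3 (adjusted p = 0.0195 for the term, limma-voom). By contrast Hsp90ab1, Hspa8, Dnaja1 and Hspd1 did not pass it, with adjusted p from 0.328 to 0.890. In limma on log2(FPKM + 1) the same term was passed by 0 of the 12749 genes after adjustment (0.0%), also with a pseudocount of 0.1 and on TPM without Gm23935 (a 57-base gene with a large share of the FPKM sum), and at an unadjusted p under 0.05 by 3 of the 7 genes and 21.8% of all genes. What a replicate number stands for is not given in the labels, and the cause was not tested.

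**Figure D4:**
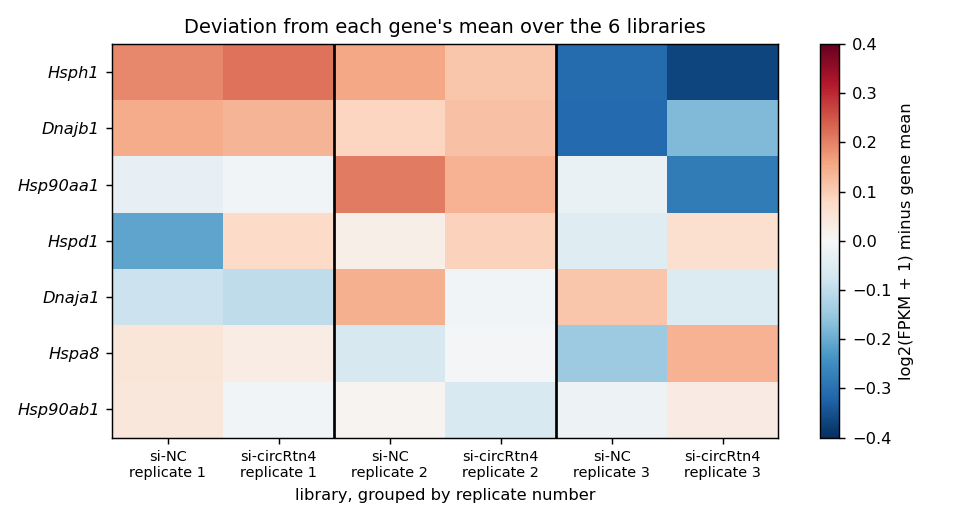
Deviation of log2(FPKM + 1) from each gene's mean over the 6 libraries (colour; red higher, blue lower), with libraries side by side by replicate number and genes in order of their SD over libraries. Hsph1 and Dnajb1 are low in replicate 3 of both groups, and Hsp90aa1 is high in replicate 2 of both.

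Of the other chaperone genes, 6 of 69 tested passed the replicate term in limma-voom, no larger a share than the 13.5% of all genes, and their values are given as a description. Each adjusted p is again that of the term over the replicate numbers, not of the difference beside it. Ahsa1 and Ahsa2, activators of the HSP90 ATPase, and Bag3, a partner of HSP70 in selective autophagy, were lower in replicate 3 than in replicate 1, by log2 differences of -0.36 (adjusted p = 0.00387), -0.36 (adjusted p = 0.0167) and -0.32 (adjusted p = 0.0416, all limma-voom). So was Dnajb2, a neuronal J protein (log2 difference -0.41, adjusted p = 0.0101, limma-voom). Trap1, the mitochondrial HSP90, and Dnajc8, a nuclear J protein, were higher in replicate 3 (log2 differences 0.26 and 0.26, adjusted p = 0.04995 and 0.0377, limma-voom). Of 14 chaperones of the endoplasmic reticulum 8 passed the term in limma-voom, where 13.5% of all genes did, and 0 of 14 passed it in limma on log2(FPKM + 1), with a pseudocount of 0.1 or on TPM without Gm23935, where 0 of all genes passed.

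To place the 10 genes within the chaperone system, a list of 74 other chaperone genes was compared between si-circRtn4 and si-NC, of which 69 were tested. In limma on log2(FPKM + 1), 5 were higher and 0 lower, or 7.25% of those tested, against the 9.19% of all genes, and 12 were higher and 6 lower at an unadjusted p under 0.05, where 13.1% and 12.8% of all genes were. The labels give no pairing, and libraries of the same number were paired because they deviated together in these data. With the replicate number as a block, 13 of the 69 passed, where 19.0% of all genes passed. The block in limma-voom called 19 of the 69 and 29.9% of all genes. None of the 7 heat shock protein genes passed in either. The median log2 fold change was -0.02, with 29 genes above 0 and 40 below.

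Hspa12a, a distant HSP70 relative, was at 6.86, 5.88 and 5.75 FPKM in si-NC and at 11.3, 9.53 and 9.72 FPKM in si-circRtn4. It rose by 0.64 on the log2 scale (standard error 0.0974, adjusted p = 0.0102, limma), with no overlap between the groups, and also passed whichever library was left out, but not without both libraries of replicate 2 or of replicate 3 (adjusted p up to 0.123). Lonp1, the protease of the mitochondrial matrix, was at 96.2, 80.9 and 100.1 FPKM in si-NC and at 128, 135 and 123 FPKM in si-circRtn4. It rose by 0.48 (standard error 0.0967, adjusted p = 0.0255, limma). Grpel2, a nucleotide exchange factor of mitochondrial HSP70, was at 6.21, 6.64 and 6.58 FPKM in si-NC and at 8.79, 7.94 and 9.03 FPKM in si-circRtn4 (log2 fold change 0.36, adjusted p = 0.0310, limma).

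Both other genes that passed were J proteins of low level. Dnajc6, or auxilin, which recruits HSC70 to clathrin-coated vesicles in neurons, was at 1.23, 0.634 and 0.605 FPKM in si-NC and at 2.08, 1.60 and 2.25 FPKM in si-circRtn4 (log2 fold change 0.72, adjusted p = 0.0457, limma). Dnajb4, a close relative of Dnajb1, was at 1.31, 1.19 and 1.11 FPKM in si-NC and at 2.18, 1.95 and 1.99 FPKM in si-circRtn4 (log2 fold change 0.47, adjusted p = 0.0446, limma). These calls were close to the threshold. Dnajb4 and Grpel2 missed it whichever library was left out, Dnajc6 without each library but si-NC replicate 1, and Lonp1 without si-NC replicate 2 or any 1 of the si-circRtn4 libraries. Over all alternatives the adjusted p reached 0.278 for Dnajb4, 0.190 for Grpel2, 0.248 for Dnajc6 and 0.229 for Lonp1.

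By role, and against 9.19% of all genes, those that passed were 1 of 6 HSP70 relatives, 2 of 11 mitochondrial genes and 2 of 11 J proteins. Of the co-chaperones of HSP90 0 of 11 passed, of those of HSP70 0 of 9, of small heat shock proteins 0 of 4, of the cytosolic chaperonin TRiC 0 of 8 and of its partner prefoldin 0 of 6. At an unadjusted p under 0.05 these counts were 1, 1, 3, 0 and 2, where 25.9% of all genes passed, and limma-voom called 0, 0, 0, 0 and 1, where it called 12.9% of all genes. With 4 to 11 genes a role, nothing is read from these counts about a role. The subunits of TRiC lay within -0.07 to 0.10 on the log2 scale.

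The regulators of the response were also compared. Hsf1, which drives the stress response of these genes, was at 13.9, 15.3 and 13.7 FPKM in si-NC and at 13.2, 15.8 and 13.003 FPKM in si-circRtn4 (log2 fold change -0.04, adjusted p = 0.852, limma). Hsf2, its developmental relative, was at 5.65, 6.17 and 6.46 FPKM in si-NC and at 6.17, 5.34 and 6.07 FPKM in si-circRtn4 (log2 fold change -0.05, adjusted p = 0.771, limma). The groups overlapped for both genes. Hsbp1, a small protein that binds HSF1 and was named here after its values had been seen, was at 96.3, 97.7 and 96.9 FPKM in si-NC and at 79.5, 87.2 and 79.2 FPKM in si-circRtn4 without overlap (log2 fold change -0.24, adjusted p = 0.0774, limma, and 0.0378 with the replicate block, within a range of 0.00568 to 0.341 over the alternatives). Hspe1, the HSP10 cap that shares the promoter element of Hspd1, was at 158, 157 and 140 FPKM in si-NC and at 162, 178 and 143 FPKM in si-circRtn4 (log2 fold change 0.08, adjusted p = 0.659, limma).

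Chaperones of the endoplasmic reticulum, which answer to another stress pathway, passed in 0 of 14 cases, against 9.19% of all genes, with a median log2 fold change of 0.04. At an unadjusted p under 0.05 there were 3 of 14, against 25.9% of all genes, and limma-voom called 2 of 14, against 12.9%. Their difference from the cytosolic and mitochondrial genes was not tested.

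**Figure D5:**
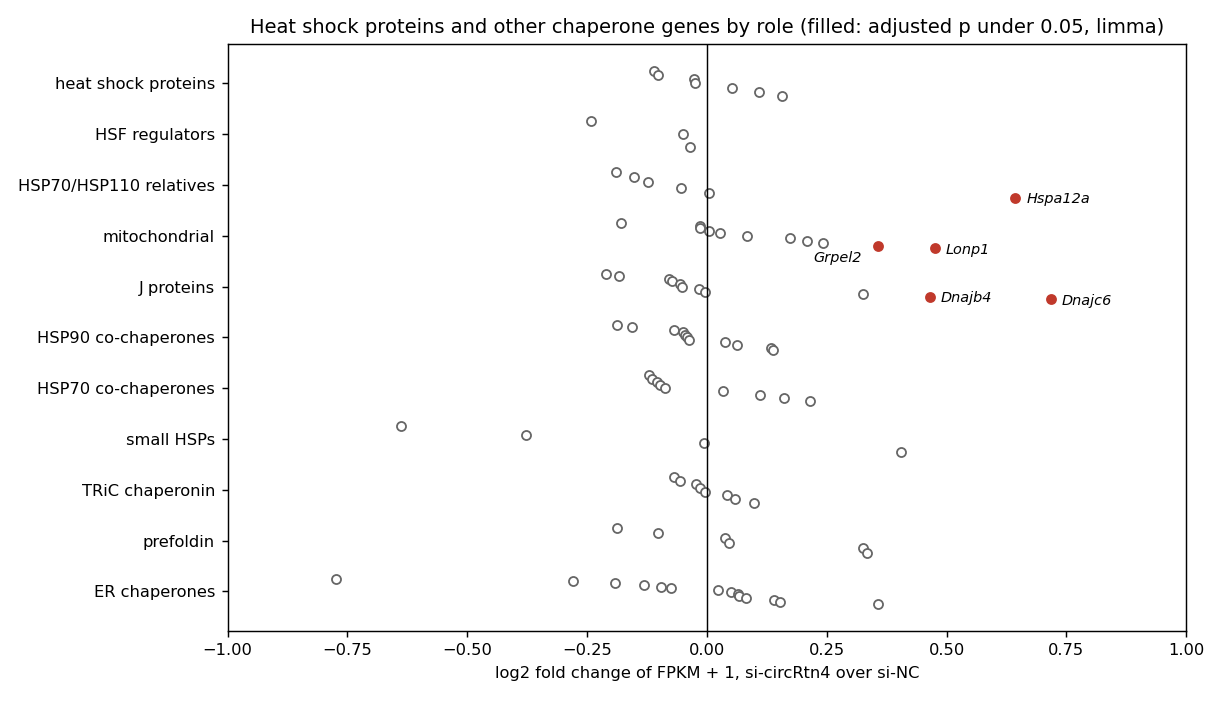
Log2 fold change of FPKM + 1 in si-circRtn4 over si-NC for the 7 heat shock protein genes tested, 69 other chaperone genes by role and 14 chaperones of the endoplasmic reticulum, each point a gene (filled and named where the adjusted p was under 0.05, limma). The 7 genes lie between -0.11 and 0.16, and the 5 named genes are all higher in si-circRtn4.

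Since circRtn4 binds miR-24-3p, the longest annotated 3′ UTR of each gene was searched for the 7-base site that pairs with the seed of this miRNA. Mature miR-24-3p is shown with its seed (bases 2 to 8) in capitals, with the sites found in capitals within 30 bases of the UTR.
miR-24-3p: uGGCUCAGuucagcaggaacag
Dnaja1: atattgtctgaCTGAGCCacaataatttta
Dnajb1: ctcctcaaggaCTGAGCCaggggctttcag

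The site CTGAGCC was found in 2 of the 10 genes, Dnaja1 and Dnajb1, and in 19.5% of the 3′ UTRs of 10699 tested genes. It begins at base 24 of the 1837 bases of the Dnajb1 UTR and at base 3886 of the 4206 bases of the Dnaja1 UTR. As given above, Dnaja1 and Dnajb1 had log2 fold changes of -0.11 and 0.05 and neither passed the test. With the guide strand of si-circRtn4 taken as the reverse complement of its listed strand, the 7-base site for the guide's seed, ACCCTTT, was in 0 of the 10 genes and in 12.5% of tested genes. A site is a match of letters and does not show that the RNA is bound.

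Finally, the genes most like the 7 tested genes in their mean profile over the 6 libraries were sought among 10682 other protein-coding genes. By the root mean square distance between centred log2(FPKM + 1) values they were Arf6 (0.0220), Oser1 (0.0232), Snx3 (0.0244), Myo9b (0.0275) and Fastkd1 (0.0302), where the median gene was at 0.155. The mean profile of the 7 genes varied little and was lowest in replicate 3, and the 6 points of each gene share the depth of their libraries. Not all of the 7 followed this mean. Hsph1 and Dnajb1 were low in replicate 3 of both groups, while Hspa8 was highest in si-circRtn4 replicate 3 (0.14 above its own mean). Likeness to the mean is thus not likeness to each gene.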

How the data were processed

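Gene expression was measured by RNA-seq in 6 N2a libraries, grouped and numbered by their titles. The authors deposited 1 table of FPKM values and gene lengths. The submitters' processing notes name Bowtie 0.12.2 and the builds mm8 and mm9, whereas 98.1% of the listed genes, and all 10 described here, have the coordinates of GENCODE M21 (GRCm38). The counting tool is not given in the sources used here. 6 columns of other samples were not used.

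FPKM was multiplied by gene length and divided by the smallest positive product of the library, which was taken as 1 read. This gave whole reads for 100% of values (tolerance 0.001 reads). Log2(FPKM + 1) of the 12749 genes that averaged 1 FPKM or more was tested with limma 3.58.1 (trend, R 4.3.3), Benjamini-Hochberg adjusted. Alternatives were a pseudocount of 0.1, all detected genes, TPM, quantile normalization, limma-voom on recovered reads (TMM factors computed from their formula), the replicate block, and libraries left out. Deviations from group means correlated at 0.331, 0.190 and 0.226 between libraries of the same number and at most at 0.00913 between others, so numbers were treated as pairs, which the data and not the labels support. Pipelines were tested on simulated data. In these, libraries of the same number shared no effect outside the genes set to change. The limit set on false calls did not cover the replicate block or the replicate term in limma. The simulation therefore does not show how the block behaves on these libraries. Ratios were tested by exact permutation. Promoters and miR-24-3p came from RefSeq (GRCm38.p6), UTRs from GENCODE M21, and the siRNA strand from the study's oligonucleotide list.

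The 10 genes and all lists were chosen with earlier results of these data known. Named genes are these 10, Hsf1, Hsf2, Hspe1, other chaperone genes at an adjusted p under 0.05 (at most 15 by size) and the 5 most alike in profile. Hsbp1 and the genes that passed the replicate term were added after their values were seen.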

Additional observations from a re-analysis of the deposited data

How the results depend on the processing

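Under the 17 alternatives, 0 of the 7 heat shock protein genes passed in each. The share of all genes that passed ranged from 0.133% (without both libraries of replicate 2) to 29.9% (replicate block in limma-voom), and where few genes passed the 0 says little about these 7. Hspa8, Dnaja1 and Hspd1 kept their direction. The signs of the small fold changes did not hold elsewhere. Hsph1 became 0.065 on TPM and 0.029 after quantile normalization, and Hsp90ab1 0.067 and 0.12, where TPM moved the median of all genes to 0.0822. Leaving out a library gave -0.19 to 0.15 for Hsph1, -0.20 to 0.014 for Hsp90aa1 and -0.091 to 0.15 for Dnajb1. It gave -0.20 to 0.062 for the log2 ratio of Hsp90aa1 to Hsp90ab1, -0.022 to 0.14 for Hspd1 to Hspe1 and -0.0071 to 0.33 for Dnajb1 to Dnaja1.

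The count of 5 of 69 other chaperone genes was 1 among all detected genes (more genes tested, 1.66% of all passing), 8 on TPM (10.8%), 13 with the replicate block (19.0%), 19 with the replicate block in limma-voom (29.9%), 1 to 4 without a library (2.98% to 6.48%; 3 and 1 without si-NC replicates 1 and 2, and 2, 1 and 1 without si-circRtn4 replicates 1, 2 and 3) and 0 to 1 without both libraries of a number (fewer samples, 0.133% to 2.52%). The percentages are shares of all genes tested in the same setting, against 9.19% in the fit the count of 5 comes from. For the endoplasmic reticulum the count of 0 was 1 on TPM, 1 after quantile normalization (9.81%), 2 in limma-voom (12.9%), 2 with the replicate block, 4 with the block in limma-voom, and 0 to 1 without a library (1 without si-NC replicate 3 or si-circRtn4 replicate 2). The block in limma-voom, the pairs left out and the replicate term were added after seeing the data, and the causes were not tested. The 3 genes that passed the replicate term were 0 in limma on log2(FPKM + 1), 0 with a pseudocount of 0.1 and 0 on TPM without Gm23935, a 57-base gene. For the ratios the pairing gave sign-flip p of 1.0, 0.75 and 0.25 (exact permutation of 3 pairs), of which 0.25, for Dnajb1 to Dnaja1, is the smallest that 3 pairs allow, so this test could change no call. The ratio of Hspa1a plus Hspa1b to Hspa8 was not run, since these genes had at most 1 read.

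With 3 libraries per group the intervals of the 7 genes still allow changes of up to 0.46 on the log2 scale (Hsph1), and depth limits Hspa1a, Hspa1b and Hspb1.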
